A study of Homo sapiens and Mus musculus with 18 samples.

Results

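KRT17, which encodes keratin 17 (K17), and 9 other keratin genes (KRT14, KRT5, KRT13, KRT15, KRT7, KRT8, KRT18, KRT19 and KRT80) were followed across 2 human pancreatic cancer cell lines. The 10 genes were taken by name, with earlier results of these data known, and are 10 of the 34505 gene rows counted in every human library. L3.6, labelled an adenosquamous carcinoma line, was sequenced as cells whose KRT17 had been knocked out with CRISPR-Cas9 and as wild-type cells. PANC-1, labelled a ductal adenocarcinoma line, was sequenced as cells that over-express K17 and as cells with an empty vector, and KPC, labelled as the same tumour type and counted on mouse genes, was sequenced in the same pair of states. Every group had 3 libraries, so that the keratins were read in 12 human libraries and 2 mouse rows were read in 6 mouse libraries. All lines were cultured in DMEM with serum. The labels do not say whether a knockout or over-expressing population was 1 clone, which vector drove K17, or whether replicates were separate cultures. Differences of clone or culture therefore cannot be told apart from the effect of K17.

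Keratins are the intermediate filament proteins of epithelial cells. A filament forms only from pairs of 1 acidic type I and 1 basic type II keratin, and keratins left without a partner are degraded. Keratins 8, 18, 19 and 7 are the keratins of simple epithelia such as the pancreatic duct, keratins 5, 14 and 15 those of the basal layer of stratified epithelia, and keratin 13 that of internal stratified epithelia such as the oesophagus. Keratin 17 is found in hair follicles, glands and wounded skin and marks an aggressive basal-like form of pancreatic ductal cancer, and keratin 80 is a type II keratin of many epithelia.

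Of the 10 genes, 6 encode type I keratins (KRT17, KRT14, KRT13, KRT15, KRT18 and KRT19) and 4 type II keratins (KRT5, KRT7, KRT8 and KRT80). In GENCODE 29 on GRCh38, KRT17 (ENSG00000128422.15) lies on the minus strand of chromosome 17 from 41619441 to 41624842. KRT14, KRT13, KRT15 and KRT19 lie beside it on that chromosome, and KRT18 lies with the 4 type II genes on chromosome 12. The coding sequence of KRT17, 1296 bases, is 85.2% identical to that of KRT14 and 80.9% identical to that of KRT16, a related keratin of wounded skin, over the bases that align. Identity was 95.7% with the pseudogene KRT17P1, 95.4% with KRT17P2 and 94.2% with KRT17P3. The 60 coding bases of KRT17 from base 361 to base 420, counted from its start codon, are shown because they differ widely from KRT14 and KRT16 but hardly from the pseudogenes KRT17P2 and KRT17P3. Sequences are from GENCODE 29 transcripts (GRCh38, 5′ to 3′), and capitals mark the bases that differ from KRT17.
KRT17: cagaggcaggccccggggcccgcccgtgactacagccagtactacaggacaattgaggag
KRT14: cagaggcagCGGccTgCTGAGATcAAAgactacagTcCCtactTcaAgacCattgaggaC
KRT16: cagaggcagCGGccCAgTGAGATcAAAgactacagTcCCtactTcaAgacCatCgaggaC
KRT17P2: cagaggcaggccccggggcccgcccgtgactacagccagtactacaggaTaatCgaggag
KRT17P3: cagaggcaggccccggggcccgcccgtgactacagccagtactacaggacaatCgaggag
KRT14 differs from KRT17 at 21 of these 60 bases and KRT16 at 22, against 2 for KRT17P2 and 1 for KRT17P3.

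The share of a transcript that is unique differs widely between the members, and with it how far a row can hold all of a gene's reads. Cut into all windows of 50 bases, the KRT17 transcript shares 16% of its windows with transcripts of other genes, mostly with KRT17P1, KRT17P2 and KRT17P3. KRT18 shares 47.6% and KRT8 41.3%, with each other or with their many pseudogenes, and KRT14 shares 23.8%, mostly with KRT16 and its copies. KRT19 shares 1.79%, KRT80 0.42% and KRT15 0.328%. KRT13 shares 18.4% and KRT7 10.8%, mostly with an antisense gene of each. KRT8 and KRT18 also overlap head to head on opposite strands, with 525 exon bases in common. An antisense gene overlaps 16.3% of the exon bases of KRT13, and another, KRT7-AS, overlaps 6.89% of those of KRT7. The strand setting of the counts is not given in the sources used here, so reads from these stretches could not be assigned.

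Depth ran from 9485257 to 15476629 counts per library in L3.6, from 59671178 to 70789559 in PANC-1 and from 18270619 to 34489693 in KPC. PANC-1 empty vector replicate 2 stood apart, with 18.8% of its counts from mitochondrial DNA against 9.88% to 10.8% in the other PANC-1 libraries. Results in PANC-1 are therefore given with and without it, and no cause of its difference was tested. Some rows of abundant genes held few counts in 1 line (EEF2, a translation factor, had 32 to 53 counts in L3.6 libraries and 10960 to 27520 in PANC-1 libraries), so a row may hold a part of a gene's reads that is not the same in both lines. The same was seen within a group, as CANX, a chaperone, was counted 16969 to 18956 times in the K17 libraries of PANC-1, against 21772, 67 and 21411 times with the empty vector. Whether this touched the keratin rows of PANC-1 was not tested. The summed level of 5 epithelial markers was 754 to 869 CPM (counts scaled to library size) in L3.6 and 55.0 to 72.8 CPM in PANC-1. Not every marker showed this gap. CLDN4 averaged 11.1 CPM in the L3.6 knockout and 12.6 in wild type, against 20.4 in PANC-1 K17 and 14.5 with the empty vector. CDH1, which encodes E-cadherin, averaged 1.64 CPM in the L3.6 knockout and 1.52 in wild type. The summed level of 4 squamous markers was 981 to 1455 CPM in L3.6 and 4.05 to 8.75 CPM in PANC-1, but KRT6A, a defining squamous keratin, had no count in any L3.6 library. Acinar and islet markers stood at 0.217 CPM or less in every human library. The summed level of 4 fibroblast markers was 6.94 CPM or less, and that of 4 endothelial markers 12.9 CPM or less. PECAM1, an endothelial marker, averaged 3.62 CPM in the L3.6 knockout and 9.57 CPM in wild type (edgeR adjusted p = 0.00468). The summed level of 4 immune markers was 1.70 to 6.11 CPM in L3.6 and 35.2 to 51.0 CPM in PANC-1. Most of the PANC-1 sum was CD68, at 33.3 to 49.0 CPM. In whole-culture RNA, fewer cells with a transcript and less transcript per cell cannot be told apart.

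**Figure D1:**
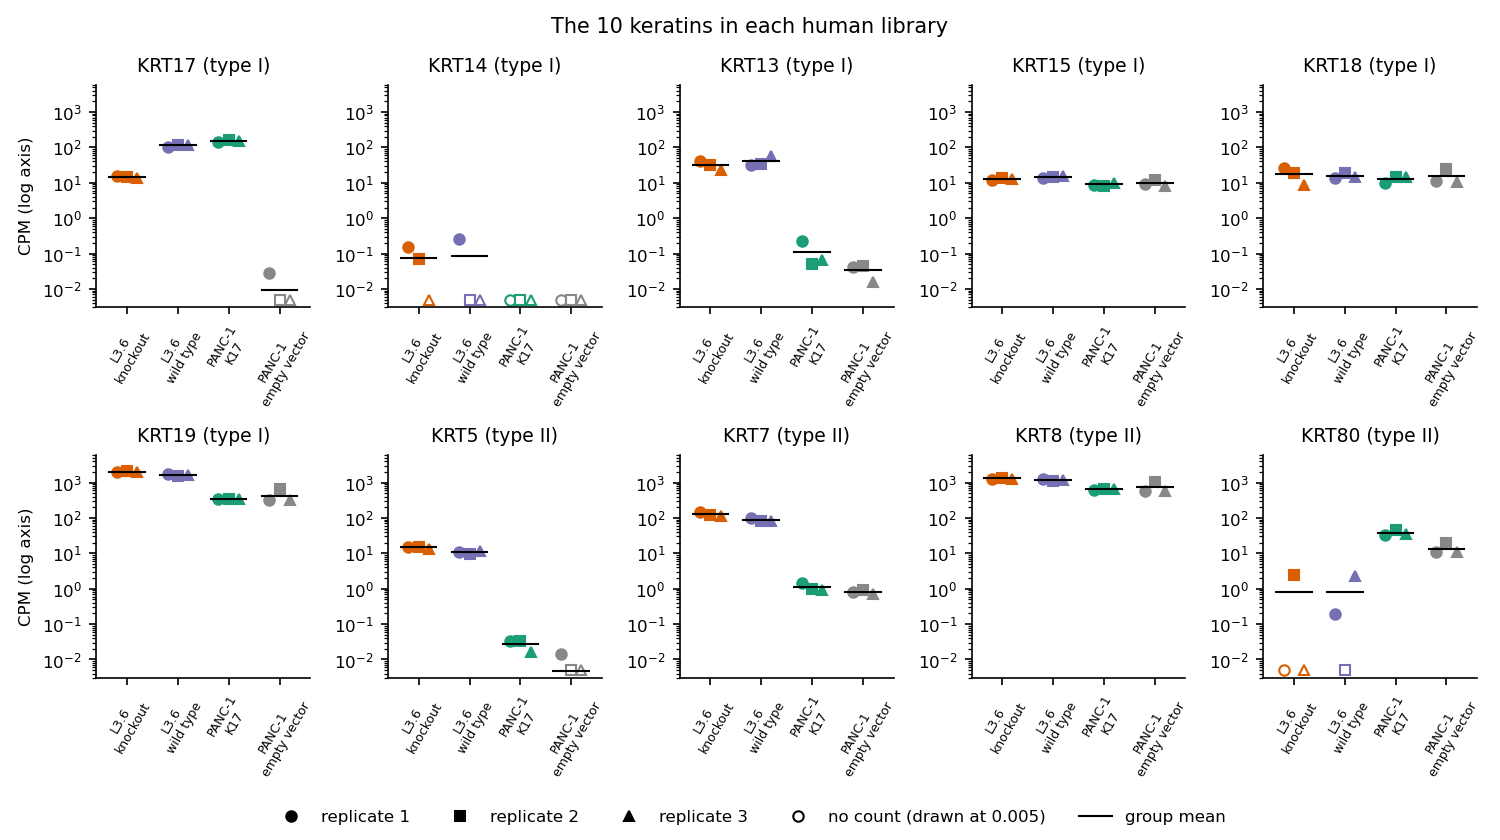
CPM (log axis) of the 10 keratins in the 12 human libraries, by group; points are libraries, shaped by replicate, open points had no count, and bars are group means. KRT17 stood at 13.5 to 15.6 CPM in the L3.6 knockout against 105 to 121 CPM in L3.6 wild type, and at 139 to 165 CPM in PANC-1 K17 against 0.0284 CPM or less with the empty vector.

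KRT17 itself was lower in knockout than in wild-type L3.6 cells but was still counted. It stood at 15.6, 14.7 and 13.5 CPM in the knockout libraries, against 105, 121 and 120 CPM in the wild-type libraries. The groups lay far apart, with every knockout library at about the same residual level. Counts per gene do not show which part of KRT17 the residual reads cover. The log2 fold change, wild type minus knockout, was 2.98, with a standard error (SE) of 0.088, and the adjusted p of edgeR's quasi-likelihood test (by Benjamini and Hochberg, over all genes tested) was 3.29e-06. KRT17 thus followed the knockout label. In the same comparison 9.61% of the 13891 genes tested passed an adjusted p of 0.05.

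In PANC-1, KRT17 was close to absent without the introduced K17. It was counted 8597, 9884 and 9228 times in the K17 libraries (139, 165 and 149 CPM), against 2, 0 and 0 times in the empty vector libraries, where 3 counts would equal 0.0426 to 0.047 CPM. The counts summed over each group gave a ratio of 15291, with an exact 95% counting interval of 4233 to 126267 that covers counting error only. The fitted log2 fold change, K17 minus empty vector, was 13.65 (SE 0.586, edgeR adjusted p = 0.00646), a size that moves with the prior count. It was 13.13 without empty vector replicate 2 (edgeR adjusted p = 7.36e-06), while the adjusted p was 0.0773 without empty vector replicate 3 and 0.122, 0.117 and 0.127 without K17 replicate 1, 2 and 3. In PANC-1, 0.644% of 16295 genes passed, and 20.7% of 16640 passed without empty vector replicate 2.

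The introduced K17 of PANC-1 reached about the level of the gene in wild-type L3.6. In the order of levels PANC-1 K17 came highest with 151 ± 13.1 CPM, then L3.6 wild type with 115 ± 8.66, the L3.6 knockout with 14.6 ± 1.03 and the PANC-1 empty vector with 0.00947 ± 0.0164 (SD, n = 3 each). No neighbours in this order overlapped, and the PANC-1 K17 mean was 1.31 times the wild-type L3.6 mean. With all libraries in edgeR, KRT17 was also the single member whose log2 fold change differed between lines by a test. Its PANC-1 value exceeded its L3.6 value by 10.51 (SE 0.428, edgeR adjusted p = 1.05e-06). KRT17 was itself introduced in PANC-1 and knocked out in L3.6, so a difference between lines cannot be told apart from one between manipulations. In that test of the difference 1.54% of 17583 genes passed.

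Reads of the pseudogene copies of KRT17 were few. KRT17P2 had 17, 15 and 23 counts in PANC-1 K17 and none with the empty vector, and KRT17P3 had 15, 6 and 10 against none. These are the copies whose sequences are printed above beside KRT17. All 8 KRT17 pseudogene rows together held 46, 37 and 47 counts in PANC-1 K17 (0.373% to 0.532% of the KRT17 and pseudogene counts) and 18, 16 and 20 with the empty vector, where KRT17 was nearly uncounted. In L3.6 they held 10, 3 and 2 counts in the knockout (1.13% to 4.72%) and 16, 5 and 9 in wild type (0.448% to 0.958%). KRT17P5 and KRT17P7 had equal counts in 12 of 12 libraries and so are not separate measurements.

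In KPC, rows ENSMUSG00000035557 and ENSMUSG00000045545 were counted with K17 alone. ENSMUSG00000035557 stood at 69.6, 71.1 and 67.2 CPM in the K17 libraries, against no count in the 3 libraries with the empty vector. With that group set at a floor of 3 summed counts, its level with K17 was at least 2200-fold higher (edgeR adjusted p = 5.59e-16). ENSMUSG00000045545 stood at 37.2, 38.6 and 36.0 CPM with K17, against 0 in the empty vector libraries, and was at least 1183-fold higher by that floor (edgeR adjusted p = 8.22e-15). The level of ENSMUSG00000035557 was 1.87, 1.84 and 1.86 times that of ENSMUSG00000045545 in the K17 libraries, nearly a constant ratio. The tables used here pair no mouse row with a gene name, so neither row is named, and whether both hold reads of 1 introduced sequence was not tested. In KPC 35% of 14257 genes passed.

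Among the close relatives of KRT17, KRT14 was near zero everywhere. KRT14, the usual type I partner of keratin 5 in basal cells, had 2, 1 and 0 counts in the L3.6 knockout and 4, 0 and 0 in wild type. It had none in the 6 PANC-1 libraries, K17 included, although it shares with KRT17 a run of 59 identical coding bases (KRT17 coding bases 760 to 818). KRT16 had 12 counts or fewer in every human library. Neither KRT14 nor KRT16 could be tested in either line at these counts.

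KRT5, KRT13 and KRT15, keratins of stratified epithelia, did not pass the test in L3.6. KRT5, the type II keratin of basal cells, stood at 15.4, 15.5 and 12.9 CPM in the knockout, against 10.9, 9.76 and 11.8 CPM in wild type. Its groups did not overlap, but its log2 fold change, wild type minus knockout, of -0.43 (SE 0.147) missed the threshold (edgeR adjusted p = 0.105). KRT13 stood at 40.4, 32.3 and 22.5 CPM in the knockout against 32.5, 34.5 and 55.4 CPM in wild type, with overlapping groups and a log2 fold change of 0.36 and an SE of 0.269 (edgeR adjusted p = 0.416). KRT15 stood at 12.3, 13.7 and 12.6 CPM in the knockout against 13.4, 15.1 and 15.8 CPM in wild type, also with overlap and with a log2 fold change of 0.20 and an SE of 0.132 (edgeR adjusted p = 0.367).

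In PANC-1 these keratins of stratified epithelia parted. KRT5 was counted 2, 2 and 1 times with K17 and 1, 0 and 0 times with the empty vector. KRT13 was counted 14, 3 and 4 times with K17 and 3, 3 and 1 times with the empty vector. All but 2 of these counts were at or under 3, which is too few to test. KRT15, a keratin of basal and hair follicle cells, was instead well counted, at 8.69, 8.32 and 9.98 CPM with K17 against 9.47, 11.7 and 8.30 CPM with the empty vector. Its groups overlapped, and its log2 fold change was -0.13 (SE 0.185, edgeR adjusted p = 0.825). KRT15 was thus the stratified keratin counted in all 4 groups at a like level. Its mean ran from 9.00 CPM in PANC-1 K17 to 14.8 CPM in wild-type L3.6. By contrast, the lower L3.6 mean of KRT5 (wild type) was 395 times its mean CPM in PANC-1 K17. For KRT13 the lower L3.6 mean (knockout) was 278 times that in PANC-1 K17. These ratios rest on 5 counts of KRT5 and 21 of KRT13 summed over the PANC-1 K17 libraries, so their size is uncertain.

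**Figure D2:**
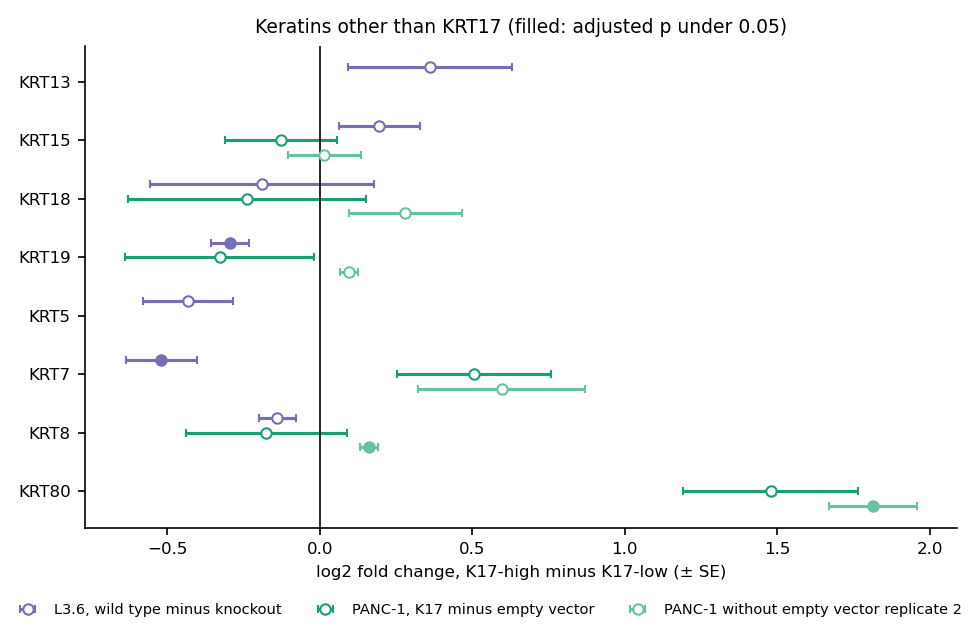
Log2 fold change ± standard error (x axis, K17-high minus K17-low) of the tested keratins other than KRT17 in L3.6, in PANC-1 and in PANC-1 without empty vector replicate 2; filled points had an adjusted p under 0.05. KRT7 and KRT19 lay below 0 in L3.6 with -0.52 and -0.30, and KRT80 lay at 1.48 in PANC-1, or 1.81 without that library.

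Of the simple-epithelial keratins, KRT7 and KRT19 were higher in the L3.6 knockout. KRT7, a type II keratin of ducts, stood at 145, 122 and 113 CPM in the knockout libraries, against 101, 82.2 and 81.1 CPM in the wild-type libraries. The lowest knockout library lay above the highest wild-type library. The log2 fold change, wild type minus knockout, was -0.52 (SE 0.117, edgeR adjusted p = 0.0326). KRT19, a type I keratin of ducts, stood at 1937, 2107 and 2008 CPM in the knockout, against 1767, 1553 and 1613 CPM in wild type. Its groups did not overlap either, and its log2 fold change was -0.30 (SE 0.061, edgeR adjusted p = 0.0212). Both calls were lost when single libraries were left out. KRT7 missed 0.05 without knockout replicate 1 or 2 or wild-type replicate 2 or 3 (edgeR adjusted p = 0.0734 to 0.114), and KRT19 without knockout replicate 2 or 3 or wild-type replicate 2 or 3 (0.0651 to 0.112). Neither passed in 1 fit of the 4 human groups (adjusted p = 0.199 and 0.612).

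KRT8 and KRT18 form the first keratin pair of simple epithelia. KRT8, the type II partner, stood at 1264, 1386 and 1274 CPM in the L3.6 knockout and 1244, 1111 and 1207 CPM in wild type. The groups came close without overlapping, and the log2 fold change, wild type minus knockout, of -0.14 (SE 0.060) missed the threshold (edgeR adjusted p = 0.178). KRT18, the type I partner, stood at 26.0, 19.4 and 8.59 CPM in the knockout and 13.9, 19.4 and 14.3 CPM in wild type, with a log2 fold change of -0.19 and an SE of 0.368 (edgeR adjusted p = 0.770). The knockout libraries of KRT18 spread more widely than those of any other tested member and enclosed the wild-type libraries.

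Of the 10 members 8 were tested in L3.6, and 3 of them passed, 1 higher in wild type (KRT17) and 2 lower (KRT7 and KRT19), beside 9.61% of all genes tested. KRT17 was itself the gene knocked out, so its call is no result about its partners. The median log2 fold change of the 8, wild type minus knockout, was -0.16, against 0.0054 over all genes tested. KRT14 and KRT80 did not pass the filter on low counts. KRT80 had 0, 34 and 0 counts in the knockout and 3, 0 and 27 in wild type, so that a single library carried nearly all of its counts in each group.

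Of the 7 members tested in PANC-1, KRT80 had the largest log2 fold change after KRT17. KRT80 stood at 32.5, 44.7 and 36.3 CPM in the K17 libraries, against 10.7, 19.3 and 10.8 CPM in the empty vector libraries. Every K17 library lay above every empty vector library, and replicate 2 was the high one among the empty vector libraries. The log2 fold change, K17 minus empty vector, was 1.48 (SE 0.287) and missed the threshold (edgeR adjusted p = 0.110), but it was 1.81 (SE 0.145) without empty vector replicate 2 (edgeR adjusted p = 0.000542). DESeq2 with all 6 libraries also called it (log2 fold change 1.46, adjusted p = 0.000563). KRT80 missed the threshold in the other 10 of 12 alternative fits. Among these, the edgeR adjusted p was 0.115 with RLE scaling, 0.264 under a replicate block and 0.509 in 1 fit of the 4 human groups. The difference of the K17 effects between lines could not be resolved for KRT80, at 1.44 (SE 1.58, edgeR adjusted p = 0.717).

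The simple-epithelial keratins of PANC-1 did not pass the test with all libraries. KRT8 stood at 631, 661 and 649 CPM with K17, against 569, 1037 and 587 CPM with the empty vector, a log2 fold change of -0.18 and an SE of 0.265 (edgeR adjusted p = 0.830). KRT19 stood at 332, 348 and 336 CPM with K17, against 315, 643 and 317 CPM with the empty vector, a log2 fold change of -0.33 and an SE of 0.310 (edgeR adjusted p = 0.741). KRT18 stood at 9.75, 14.6 and 14.3 CPM with K17, against 10.9, 24.4 and 10.2 CPM with the empty vector, a log2 fold change of -0.24 and an SE of 0.391 (edgeR adjusted p = 0.841). For each of these keratins the groups overlapped, and empty vector replicate 2 was the highest library of all 6.

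Their direction rested on that library. In empty vector replicate 2, KRT8 stood at 1.79, KRT18 at 2.31, KRT19 at 2.03 and KRT80 at 1.79 times the mean CPM of empty vector replicates 1 and 3. Without it, KRT8 was 0.16 higher with K17 on the log2 scale (SE 0.030, edgeR adjusted p = 0.00978), and the values of KRT18 and KRT19 were 0.28 and 0.09 (edgeR adjusted p = 0.374 and 0.0668). KRT7, which is scarce in PANC-1, stood at 1.48, 0.987 and 0.921 CPM with K17 against 0.781, 0.895 and 0.706 CPM with the empty vector. Its groups did not overlap, but its log2 fold change of 0.51 (SE 0.254) missed the threshold with all libraries (edgeR adjusted p = 0.590) and without that library (0.60, edgeR adjusted p = 0.189).

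**Figure D3:**
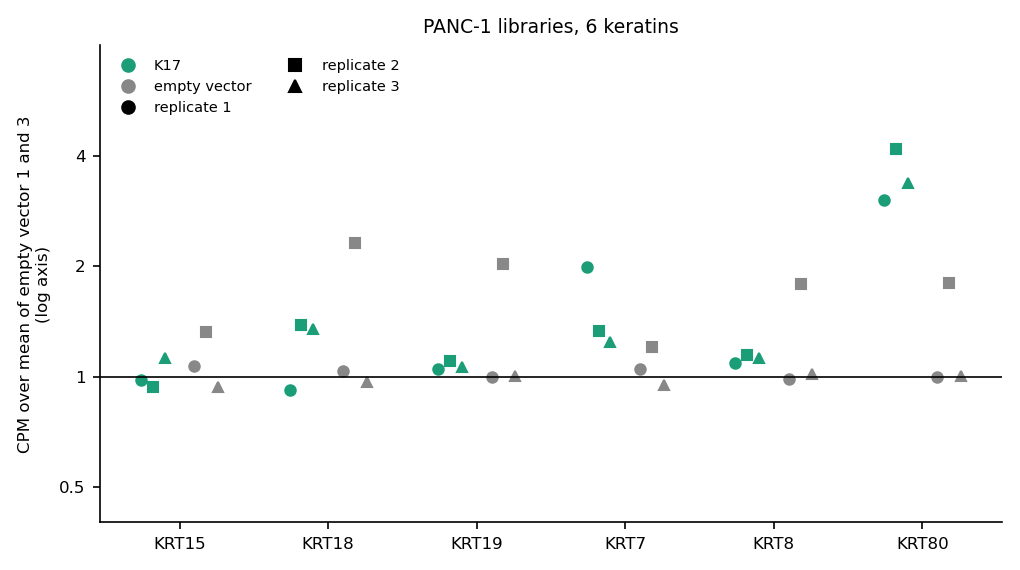
CPM of 6 keratins in each PANC-1 library over the mean of empty vector replicates 1 and 3 (log axis), K17 libraries left of empty vector libraries, shaped by replicate. KRT80 stood at 3.03 to 4.17 in the K17 libraries, and empty vector replicate 2 (grey square) lay at 1.79 for KRT8 and KRT80, 2.03 for KRT19 and 2.31 for KRT18.

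Of the 7 members tested in PANC-1, 1 passed (KRT17, higher with K17), and 3 passed without empty vector replicate 2 (KRT17, KRT80 and KRT8, each higher with K17). KRT17 was itself the introduced gene, so its call is no result about its partners, none of which passed with all libraries. Over all genes the share that passed was 0.644% with all libraries and 20.7% without that one. The median log2 fold change of the 7 was -0.13 with all libraries and 0.28 without that one, against 0.011 and 0.0073 over all genes tested. KRT7 had opposite signs in the lines, but the difference of its effects, PANC-1 minus L3.6, was 0.99 (SE 0.284) and missed the threshold (edgeR adjusted p = 0.138). It passed without empty vector replicate 2 (1.18, edgeR adjusted p = 0.0246), as did the difference of KRT19 (0.46, edgeR adjusted p = 0.0283), and in DESeq2 (1.06, adjusted p = 0.0321).

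To set levels of different keratins side by side, CPM was divided by the length of each gene's exons in kb. Among type I keratins KRT19 made up most of the level in every group, with 96.0 ± 0.793% in the L3.6 knockout, 90.7 ± 0.884% in L3.6 wild type, 67.2 ± 1.53% in PANC-1 K17 and 87.8 ± 0.650% with the empty vector (SD, n = 3 each). KRT17 made up 0.519 ± 0.0461% of it in the L3.6 knockout and 4.77 ± 0.611% in wild type, and 22.4 ± 0.914% in PANC-1 K17 and 0.00196 ± 0.00339% with the empty vector. A like CPM of KRT17 was thus a larger part of the type I level in PANC-1, where KRT19 per kb was lower (145 CPM per kb in PANC-1 K17, 704 in L3.6 wild type). The vector is not given, so the length of the introduced KRT17 transcript is unknown. The KRT17 level per kb in PANC-1 K17 may therefore not compare with that in L3.6. The summed type I level of PANC-1 was 216 ± 9.94 CPM per kb with K17, against 207 ± 90.0 with the empty vector, or 154 and 155 in empty vector replicates 1 and 3.

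Among type II keratins KRT8 made up 80.8% to 84.3% of the level in the L3.6 knockout and 85.4% to 86.4% in wild type, and 90.9 ± 0.993% in PANC-1 K17 and 96.6 ± 0.160% with the empty vector. KRT7 came next in L3.6, with 12.5% to 15.6% in the knockout and 9.77% to 11.7% in wild type. KRT80 came next in PANC-1, with 8.38 ± 1.11% in K17 cells, against 2.84 ± 0.0280% with the empty vector. The KRT80 share was 2.84% in empty vector replicate 2 and 2.87% and 2.81% in replicates 1 and 3, so that this share, unlike the CPM, did not set replicate 2 apart. With the length of the longest transcript in place of all exons, the KRT80 share was 4.09 ± 0.565% with K17 and 1.34 ± 0.0144% with the empty vector (SD, n = 3 each). The level of type I over type II keratins was 3.94 ± 0.103 in the L3.6 knockout and 3.86 ± 0.0750 in wild type, and 2.08 ± 0.0268 in PANC-1 K17 and 1.85 ± 0.125 with the empty vector (SD, n = 3 each). With the length of the longest transcript it was 2.78 in the L3.6 knockout and 2.73 in wild type. In PANC-1 it was then 1.48 with K17 and 1.26 with the empty vector, so its size depended on the length used. These shares were not tested, since the KRT17 share follows from the KRT17 counts.

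**Figure D4:**
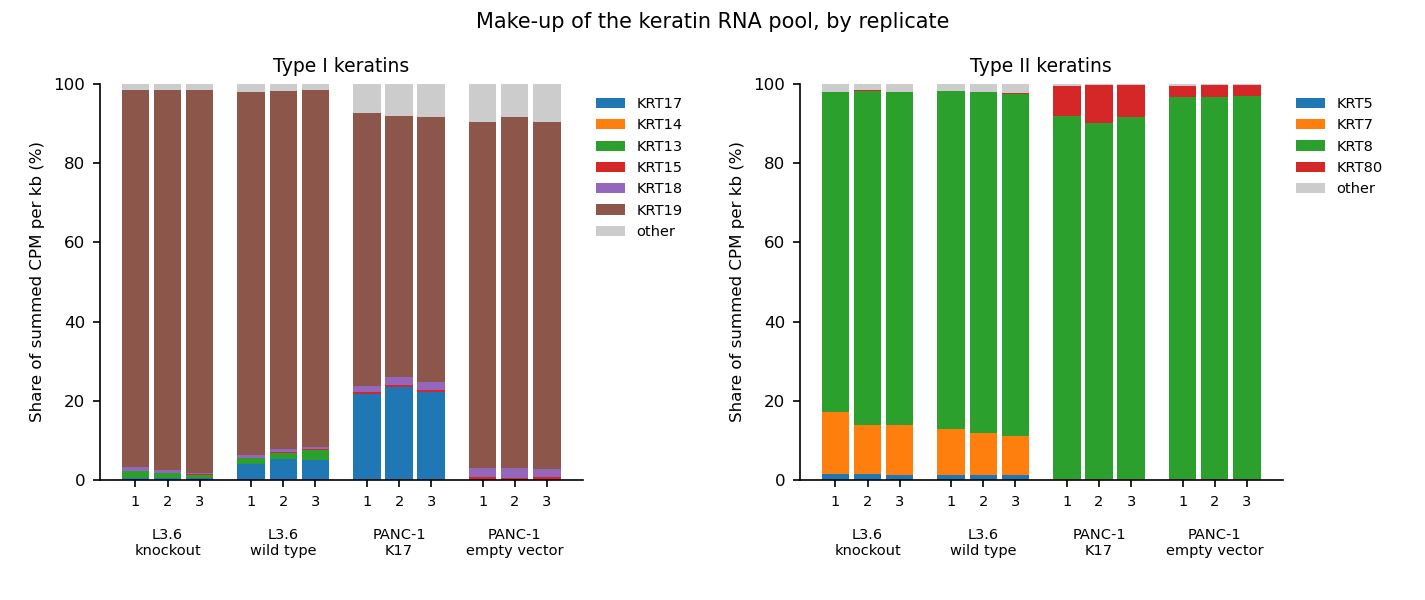
Share of each keratin in the summed type I (left) and type II (right) keratin level (CPM per kb, %) in each human library; grey is all other keratins of that type with a row. KRT17 (blue, left) made up 22.4% on average in PANC-1 K17 and 4.77% in L3.6 wild type, and KRT80 (red, right) 8.38% in PANC-1 K17 against 2.84% with the empty vector.

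The partners KRT18 and KRT8 were counted very unequally. KRT18 per kb was 0.0144 to 0.0441 of KRT8 per kb in the L3.6 knockout and 0.0239 to 0.0373 in wild type, and 0.033 to 0.0473 in PANC-1 K17 and 0.0373 to 0.0504 with the empty vector. Of the reads counted for KRT18 or its 67 pseudogene rows, pseudogenes held 23.2% to 50.4% in the L3.6 knockout, 32.1% to 46.0% in wild type, 20.4% to 30.1% in PANC-1 K17 and 16.2% to 28.0% with the empty vector. For KRT8 and its 50 pseudogene rows that share was 1.33% to 2.11% in all human libraries. KRT18 has the largest share of windows found in other genes, 47.6%, and how the counting treated such reads was not tested, so its row is an uncertain measure of the gene. The ratio of KRT19 per kb to KRT7 per kb was 23.4 to 31.2 in the L3.6 knockout, against 30.7 to 34.8 in wild type.

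Other keratins and the proteins that anchor keratin filaments were read for comparison. Of 45 other keratin genes 40 had a row, most of them at or near zero. None passed in L3.6 (3 tested) or PANC-1 (4 tested) by edgeR or DESeq2, with 0 at an unadjusted p under 0.05. By edgeR 9.61% of all genes passed in L3.6 and 0.644% in PANC-1, and 0 calls among so few keratins is near those shares. The most abundant were KRT10, a type I keratin of the upper epidermis, at 27.7 ± 1.21 CPM in the L3.6 knockout and 29.7 ± 5.79 in wild type, and at 35.3 ± 3.65 CPM in PANC-1 K17 and 38.1 ± 13.2 with the empty vector, and KRT83, a hair keratin, at 6.29 ± 1.12 CPM in the L3.6 knockout and 6.36 ± 0.673 in wild type. KRT6A, a type II partner of keratin 17 in skin, had 0, 2 and 1 counts in PANC-1 K17 and none elsewhere.

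Of 10 linker genes 9 were tested in each line, of which 4 passed in L3.6, against 9.61% of all genes, and 1 in PANC-1, against 0.644%. DSP passed in both. DSP, desmoplakin, which ties keratin filaments to desmosomes, stood at 107 ± 21.1 CPM in the L3.6 knockout and 63.6 ± 1.70 in wild type (log2 fold change, wild type minus knockout, -0.74, edgeR adjusted p = 0.0118), and at 0.575 ± 0.169 CPM in PANC-1 K17 against 2.73 ± 0.548 with the empty vector (log2 fold change -2.25, edgeR adjusted p = 0.0411). Thus DSP was lower in the K17-high cells of both lines, and the difference of the effects, PANC-1 minus L3.6, was -1.53 (edgeR adjusted p = 0.0320). With single libraries left out, the PANC-1 call held without empty vector replicate 2 (edgeR adjusted p = 0.00182) and was lost without any of the other 5 (0.162 to 0.288). Without empty vector replicate 2, 3 of 9 linkers passed in PANC-1, against 20.7% of all genes, with PLEC, plectin, and MACF1, a linker to microtubules and actin, higher with K17 (0.26 and 0.24) beside DSP. The L3.6 call of DSP was lost without wild-type replicate 2 (0.0544), and that of the difference in 8 of 12 cases (0.0839 to 0.134), although DSP kept its direction in each of these fits. In L3.6, PKP2 and DST, a desmosome and a hemidesmosome linker, were also higher in the knockout (log2 fold change, wild type minus knockout, -0.32 and -0.44, edgeR adjusted p = 0.0172 and 0.00189), and EPPK1, epiplakin, was lower in it (0.58, edgeR adjusted p = 0.00735). DST and EPPK1 also passed with any 1 library left out, whereas PKP2 missed without knockout replicate 2 or 3 or wild-type replicate 2 (edgeR adjusted p = 0.0682 to 0.0937).

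Of 16 genes of other intermediate filaments 8 were tested in L3.6, and 3 of them, VIM, LMNA and SYNM, were higher in the knockout, beside 9.61% of all genes that passed in either direction. VIM, vimentin, stood at 2071 ± 96.1 CPM in the knockout and 1346 ± 127 in wild type (SD, n = 3 each, log2 fold change, wild type minus knockout, -0.62, edgeR adjusted p = 0.00174), LMNA, lamin A and C, changed by -0.43 and SYNM, synemin, by -0.23 (edgeR adjusted p = 0.00333 and 0.0479). VIM and LMNA also passed with any 1 library left out, whereas SYNM did so only without wild-type replicate 1 (edgeR adjusted p = 0.0343, against 0.0950 to 0.206 in the other fits). In PANC-1, SYNC, syncoilin, was the member of that list that passed of 11 tested, against 0.644% of all genes. It stood at 11.5 ± 1.24 CPM with K17 against 3.85 ± 0.280 with the empty vector (log2 fold change 1.57, edgeR adjusted p = 0.0255). It passed without empty vector replicate 2 (edgeR adjusted p = 0.000355) but not without any of the other 5 libraries (0.148 to 0.249). Without that library 4 of the 11 passed, against 20.7% of all genes, with SYNC and SYNM higher with K17 (1.54 and 0.66) and the lamins LMNB1 and LMNB2 lower (-0.44 and -0.21). Of the listed binding partners of keratin 17, HNRNPK, an RNA-binding protein, and RPS6KA1, a kinase, did not pass in either line with all libraries, with log2 fold changes of -0.09 and 0.09 in L3.6 and 0.14 and -0.50 in PANC-1 (edgeR adjusted p of 0.328 or more, with 0 of the list at an unadjusted p under 0.05 by edgeR or DESeq2). Without PANC-1 empty vector replicate 2, HNRNPK turned to -0.14 and passed (edgeR adjusted p = 0.00919), while RPS6KA1 did not (-0.46, edgeR adjusted p = 0.451). Of 3 squamous markers tested in L3.6, TP63 and S100A2 passed, against 9.61% of all genes. Both were higher in the L3.6 knockout (log2 fold change, wild type minus knockout, -0.48 and -0.46, edgeR adjusted p = 0.000945 and 0.0150). Their part in the KRT7 and KRT19 results was not tested. TP63 passed with any 1 library left out, and S100A2 missed without knockout replicate 2 or 3 or wild-type replicate 2 (0.0597 to 0.0705). TRIM29, the third, stood at 14.6 ± 1.53 CPM in the knockout and 16.0 ± 3.32 in wild type and did not pass (0.13, edgeR adjusted p = 0.654).

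The genes whose log2 CPM ran most like that of KRT17 over the 12 human libraries, among 9611 genes compared, were PARP9, COL1A1, BCL2L1, CDC42EP3 and ELOVL6, with Pearson's r of 0.96, 0.95, 0.94, 0.94 and 0.94. The 12 libraries share 2 lines, and all 5 genes, like KRT17, had their lowest mean with the PANC-1 empty vector. PARP9 averaged 90.8 CPM in the L3.6 knockout and 97.9 in wild type, and 81.0 CPM in PANC-1 K17 and 33.8 with the empty vector. COL1A1, a chain of type I collagen, averaged 107 CPM in the L3.6 knockout and 141 in wild type, and 140 CPM in PANC-1 K17 and 28.1 with the empty vector. ELOVL6 averaged 75.3 CPM in the L3.6 knockout and 92.3 in wild type, and 64.9 CPM in PANC-1 K17 and 39.2 with the empty vector. Like KRT17, PARP9, COL1A1 and ELOVL6 thus had the lower mean in the K17-low group of each line. BCL2L1 and CDC42EP3 went the other way in L3.6, at 144 and 40.7 CPM in the knockout against 139 and 39.8 in wild type. COL1A1 was the gene of the 5 that was also among the 5 with the highest Spearman's rho.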

How the data were processed

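Total RNA was extracted with TRIzol and made into TruSeq RNA libraries, per the labels' protocols. The authors deposited raw counts per gene for each of the 18 libraries, with no normalization. The submitters' processing notes name STAR 2.7.3a, kallisto 0.46.2 and bcl2fastq 1.8.4. The counter, the strand setting and the handling of multi-mapped reads are not given in these sources. Since no label calls the replicates separate cultures, p-values reflect nothing beyond the spread among these libraries, which may be technical.

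Titles gave the groups. Human rows were named with GENCODE 29 (34474 of 34505 rows found). Lines were fitted separately in edgeR 4.0.16 (TMM, filterByExpr, robust glmQLFit, glmQLFTest), and p-values were adjusted by Benjamini-Hochberg over all genes kept, with a threshold of 0.05. The difference between lines was fitted over all 12 human libraries. CPM used TMM factors within a line, and CPM per kb used the union of a gene's exons. A gene's coding sequence was the longest open reading frame of its transcripts. Counting intervals are exact Clopper-Pearson intervals at 95%, and floors are 3 counts; both cover counting error only. The fits were run on simulated data with known changes. The spread of empty vector replicate 2 lowers the power of the full PANC-1 design, which was not required to find those changes. A gene that missed the threshold in that design may still have changed.

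The members and gene lists were chosen with earlier results of these data known. All 10 members are named, and of other lists up to 4 genes that passed by lowest p, otherwise the 2 most abundant, as well as the 5 genes most like KRT17 with a mean of at least 5 CPM. TRIM29, CLDN4, CDH1, CD68, PECAM1 and the list genes called without PANC-1 empty vector replicate 2 were named after their values were seen. The printed sequence window was taken for its differences from KRT14 and KRT16. The settings varied were the scaling (RLE, upper-quartile), the filter (none), the tool (DESeq2 1.42.0), 1 joint fit of the human groups, a replicate block and omission of single libraries; the order of levels with factors over all human libraries was added after the data were seen. Keratins with no row (KRT6B, KRT12, KRT24, KRT31 and KRT75) were not analysed here.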

Additional observations from a re-analysis of the deposited data

Results flagged for a closer look

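The log2 fold change of KRT17 differed between the lines. KRT17 was itself introduced in PANC-1 and knocked out in L3.6, so line and manipulation cannot be told apart here. The PANC-1 difference, K17 minus empty vector, exceeded the L3.6 difference, wild type minus knockout, by 10.51 on the log2 scale (edgeR adjusted p = 1.05e-06), with residual KRT17 in the L3.6 knockout at 14.6 CPM and KRT17 at 0.00947 CPM with the PANC-1 empty vector.

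KRT7 had a log2 fold change of -0.52 in L3.6, wild type minus knockout, and 0.51 in PANC-1, K17 minus empty vector, with groups apart in both lines. The test of the difference gave an edgeR adjusted p of 0.138.

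KRT5 had a log2 fold change of -0.43 in L3.6, wild type minus knockout, with 14.6 CPM in the knockout and 10.8 CPM in wild type, and the opposite order in PANC-1. There its counts were 2, 2 and 1 with K17 and 1, 0 and 0 with the empty vector, all under the floor of 3 counts. The difference of the effects was 2.34 on the log2 scale (edgeR adjusted p = 0.293).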

How the results depend on the processing

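KRT17 kept its direction under every alternative run, from 2.93 to 3.03 (log2, wild type minus knockout) in L3.6 and from 13.13 to 16.22 in PANC-1. With single libraries left out, genes called numbered 574 to 2493 in L3.6 (1335 with all; 2493 without wild-type replicate 1), 0 to 3442 in PANC-1 (105 with all), 138 to 1819 for the difference between lines (270 with all) and 4052 to 5611 in KPC. The members called numbered 1 to 3 in L3.6, 0 to 3 in PANC-1 and 1 to 3 for the difference. Other calls also moved: 1 fit of the 4 human groups called 204 genes and 1 member in L3.6 and 363 genes in PANC-1, and DESeq2 called 511 genes and 2 members in PANC-1 and 749 genes and 2 members for the difference. Same-numbered replicates showed little shared deviation (r of -0.213 to 0.0863 over the 3 lines). With 3 libraries per group, this check cannot exclude a pairing by number. With the replicate number as a block, 665 genes were called in L3.6, 0 in PANC-1 and 70 for the difference; 0 members were called in PANC-1 (KRT17 adjusted p = 0.262), and KRT19 in L3.6 had an adjusted p of 0.0962. Of 4720 genes called in KPC under the block, the 2 mouse rows stayed past the threshold. Where edgeR called 0 genes in PANC-1, 979 to 1713 had an unadjusted p under 0.05 (1262 under the block).

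With single libraries left out, log2 values in PANC-1 (K17 minus empty vector) ran from -0.24 to 0.015 for KRT15, -0.33 to 0.16 for KRT8, -0.45 to 0.28 for KRT18 and -0.50 to 0.095 for KRT19, each positive value being that without empty vector replicate 2. KRT18 in L3.6 (wild type minus knockout) ran from -0.51 to 0.17, the highest without knockout replicate 1. The small differences between lines of KRT8, KRT18 and KRT19 changed sign often. With single libraries left out they ran from -0.15 to 0.37 for KRT8, -0.30 to 0.54 for KRT18 and -0.18 to 0.46 for KRT19. They also turned for KRT8 in DESeq2 (0.0024) and with no filter (0.048), and for KRT18 with no filter (0.023). For KRT19 they turned in DESeq2 (0.0013), with no filter (0.048) and under the block (0.023). The difference of KRT80, 1.44 with all libraries, ran from -6.26 to 4.22 with single libraries left out. It turned in 1 of 16 alternatives, without L3.6 knockout replicate 2. With the length of the longest transcript, KRT17 made up 23.5% of the type I level in PANC-1 K17, and KRT80 4.09% of the type II level. The order of levels was the same for 7 of 10 members with factors over all human libraries, not for KRT15, KRT18 and KRT80. The causes of these changes were not tested. Low counts kept KRT5, KRT13 and KRT14 out of the test in PANC-1, and KRT14 and KRT80 in L3.6.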
